A study of Mus musculus with 16 samples.

Results

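RUNX1-only regions are places in the genome of mouse muscle cells where a RUNX1 peak was found and where no peak of MyoD, c-Jun or MyoG overlapped it. They were chosen by the deposited peak positions themselves. Peaks of the 4 lists on chromosomes 1 to 19 were merged if they shared at least 1 bp, and a merged region was kept if it held RUNX1 and none of the other 3 factors. Of 97753 merged regions, 41336 held a RUNX1 peak and 10565 were RUNX1-only. This was 25.6% of the RUNX1 regions and 10.8% of all regions. Each of the 10565 held exactly 1 RUNX1 peak, so a region and its peak are the same interval.

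RUNX1 is a runt-domain transcription factor that binds DNA together with its partner CBFB. It is best known for its part in blood formation, and in muscle it is induced when fibres are damaged or lose their nerve. MyoD and MyoG are helix-loop-helix factors that bind E-box sequences and drive commitment to muscle and its differentiation. c-Jun is a subunit of AP-1, a dimeric factor of growth and stress responses. ChIP-seq maps such factors by sequencing the DNA that an antibody against the factor pulls down.

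All cells were primary cultures of wild-type C57BL/6 satellite cells, the stem cells of muscle, isolated from gastrocnemius muscle of animals that were 2 to 3 weeks old. The lists of RUNX1, MyoD and c-Jun come from myoblasts that were still dividing on day 3 of culture. MyoG was mapped in myotubes on day 4, after 24 hours of serum starvation in medium with horse serum and insulin. Each factor had 2 ChIP libraries, described as biological replicates, and 2 control libraries (rabbit non-immune serum for RUNX1, IgG for the other factors), 16 samples in all. How many animals were pooled per culture is not given in the sources used here.

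Only 1 peak list per factor was used, and it did not separate the replicates. There is therefore no spread between cultures behind any value below, and no comparison was tested. Ranges over the 19 chromosomes and exact 95% binomial intervals are given in its place, and they describe variation along the genome and counting error. Read depth is unknown, and the control libraries were not analysed here. Peak lists hold no RNA, so the labelled cell type could not be checked against marker genes. The list taken as MyoG bore an abbreviated name and was assigned to MyoG as the factor without any other list. MyoG differed from the other factors in cell stage too, and factor and stage cannot be told apart. "RUNX1-only" means that no other peak passed the authors' threshold there, and binding below that threshold was not tested.

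RUNX1-only regions and regions with all 4 factors were the most numerous of the 8 classes of RUNX1 regions, with 10565 and 10532 regions. The order of these 2 classes depended on the setting. The 4-factor class led with RUNX1 scores of 100 or more (8890 against 5576) and with peaks within 500 bp merged (10977 against 9066), and RUNX1-only regions led with scores of 100 or more in all 4 lists (8167 against 6469). The 4-factor class made up 25.5% of RUNX1 regions. RUNX1 with MyoD and MyoG made up 16.0%, RUNX1 with c-Jun 12.3%, and RUNX1 with MyoG 10.9%. RUNX1 with c-Jun and MyoG made up 6.26%, RUNX1 with MyoD and c-Jun 2.25%, and RUNX1 with MyoD 1.16%. Among the 15087 RUNX1 regions that lacked both MyoD and c-Jun, 70.0% lacked MyoG as well and were RUNX1-only. RUNX1-only regions covered 10.4 Mb, which was 22.4% of the sequence under RUNX1 peaks. The number depended on the rule of overlap. With peaks counted as shared only if their centres lay within 150 bp, 20602 regions were RUNX1-only, or 48.8% of RUNX1 peaks against 25.02% under the rule used, and with RUNX1 scores of 100 or more there were 5576.

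**Figure D1:**
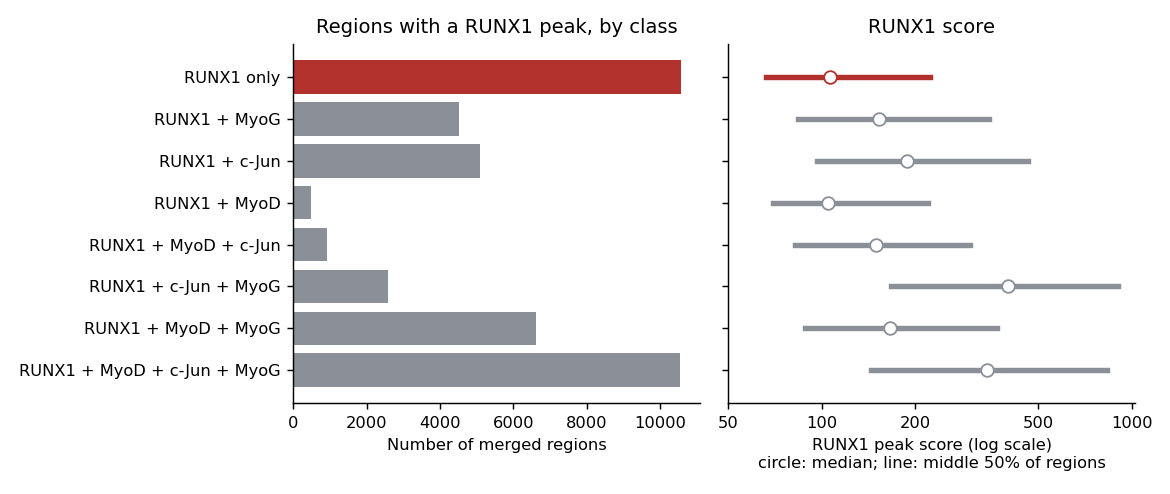
Left, number of merged regions with a RUNX1 peak in each of 8 classes (RUNX1 only in red); right, RUNX1 peak score on a log scale, with the median as a circle and the middle 50% of regions as a line. RUNX1-only regions were about as many as 4-factor regions (10565 against 10532) and had a median score of 106.3 against 342.9. The score is that of the strongest RUNX1 peak in a region, and the 4-factor regions held 11190 RUNX1 peaks.

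The share of RUNX1 regions that were RUNX1-only varied little between chromosomes. Its mean was 25.5% ± 1.01 (SD over 19 chromosomes). It was lowest on chromosome 18, at 23.9% (exact 95% interval 21.6 to 26.3), and highest on chromosome 11, at 27.4% (25.8 to 28.9). These 2 intervals overlapped. The number of RUNX1-only regions per Mb varied more, from 3.17 on chromosome 3 to 7.06 on chromosome 11, where RUNX1 regions of all classes were also densest at 25.8 per Mb.

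Each peak carried a score from the authors' peak caller, which was used here to rank peaks within the RUNX1 list only. The lowest score in the list was 50.01, and many peaks sat at a ceiling of exactly 3100. RUNX1-only regions lay towards the low end. Their median score was 106.3, with 50% of regions between 66.4 and 224.2 and 10% above 491.4. The other 31661 RUNX1 peaks had a median of 217.3. A score under 100 was found for 47.2% of RUNX1-only regions and for 24.5% of the other RUNX1 peaks. A score of 1000 or more was found for 3.02% and 12.3%. The rule chose members from the same list, so these values describe the class and are no test of it.

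The other classes differed in score as well. Their regions could hold several RUNX1 peaks, and the strongest gave the score of the region. RUNX1 with MyoD but neither c-Jun nor MyoG, the smallest class with 481 regions, had a median score of 104.7, next to that of RUNX1-only regions. RUNX1 with MyoG had a median of 153.1, RUNX1 with MyoD and MyoG 166.4, and RUNX1 with c-Jun 188.3. The highest medians belonged to regions with both c-Jun and MyoG, at 399.7 without MyoD and 342.9 with it.

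The share of RUNX1 peaks that were RUNX1-only fell at each step from the lowest to the highest decile of the RUNX1 score. In the lowest decile, with scores from 50.01 to 61.17, 1952 of 4223 peaks stood alone, or 46.2% (exact 95% interval 44.7 to 47.7; 39.9% to 51.9% over chromosomes). In decile 5 the share was 25.2%. In the highest decile, with scores from 998.5 upwards, 320 of 4223 peaks stood alone, or 7.58% (6.80 to 8.42; 4.41% to 11.7% over chromosomes). The chromosome ranges of the lowest and highest deciles did not overlap. The share in the highest decile moved by more than 1.5 times under 3 of the alternatives. It was 40.7% (lowest decile 62.2%) with centres within 150 bp, 13.8% without the MyoG list and 13.4% with scores of 100 or more in the other lists.

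Peak width moved with the score. RUNX1-only peaks had a median width of 859 bp, against 979 bp for the other RUNX1 peaks, and wider RUNX1-only peaks scored higher (Spearman's rho 0.53 across 10565 regions, given as a description). The share of RUNX1-only peaks was 37.9% in the narrowest decile of RUNX1 peaks and 12.7% in the widest. Within each of 5 classes of score, peaks were split at the median width of the class, a coarser contrast than that of the extreme deciles. The direction of the difference between narrower and wider peaks varied, and their intervals overlapped in every class but the highest. In the lowest class the values were 42.9% (41.4 to 44.4) for narrower and 42.0% (40.5 to 43.5) for wider peaks. In class 2 they were 29.8% (28.4 to 31.2) and 32.3% (30.9 to 33.7), higher for the wider peaks but with overlapping intervals. In class 3 they were 23.1% (21.8 to 24.4) and 23.8% (22.5 to 25.1), and in class 4 they were 17.7% and 18.7%. In the highest class they were 11.1% (10.2 to 12.1) and 8.97% (8.12 to 9.87), so here fewer of the wider peaks stood alone.

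The presence of MyoG also moved with the RUNX1 score. Among RUNX1 peaks that met neither MyoD nor c-Jun, a MyoG peak of myotubes was present at 18.4% (16.9 to 20.04) in the lowest decile, at 32.8% (30.5 to 35.2) in decile 5 and at 44.7% (40.6 to 48.9) in the highest. The remaining 81.6%, 67.2% and 55.3% were RUNX1-only. Among RUNX1 peaks free of MyoD and c-Jun, a MyoG peak of myotubes was thus more frequent in the highest decile than in the lowest. The rule used the same MyoG overlap, so these values describe the lists and are no test. Width rose along the deciles too, from a median of 719 bp for RUNX1-only peaks in the lowest to 1340 bp in the highest. The share with MyoG at equal width was not tested. The MyoG peaks came from a later stage, and no MyoG peaks of myoblasts were analysed here.

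**Figure D2:**
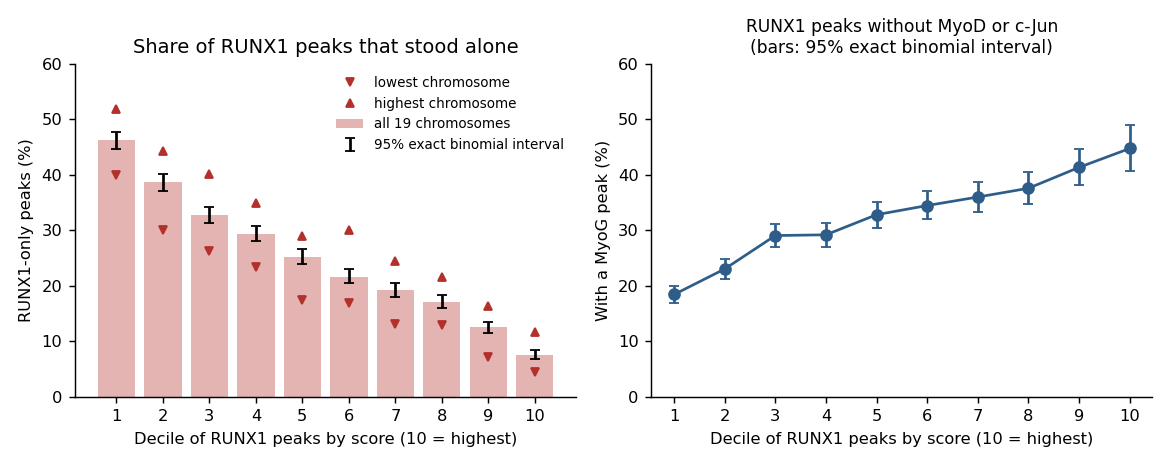
Bars on the left, percent of RUNX1 peaks that were RUNX1-only in each decile of the RUNX1 score, with exact 95% binomial intervals and the lowest and highest of 19 chromosomes as triangles; right, percent with a MyoG peak among RUNX1 peaks that met neither MyoD nor c-Jun, with the same intervals. The left series falls from 46.2% to 7.58% and the right one rises from 18.4% to 44.7%.

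Peaks of a single factor existed for each of the 4 lists, and RUNX1-only regions lay between the extremes. The share of a factor's regions that held that factor only was 34.0% for c-Jun (29.2% to 38.1% over chromosomes), 27.9% for MyoG (25.2% to 29.4%), 25.6% for RUNX1 (23.9% to 27.4%) and 14.4% for MyoD (11.6% to 17.4%). The lists differed in length, so the order of these shares is a description. In the lowest decile of its own score, RUNX1 stood alone at 46.2% of peaks, MyoD at 34.6%, c-Jun at 51.0% and MyoG at 53.3%. In the highest decile, RUNX1 stood alone at 7.58% of peaks and c-Jun at 11.1%, while MyoD stood alone at 0.575% and MyoG at 0.244%. Strong RUNX1 peaks without the other factors were therefore present in these lists, while strong MyoD or MyoG peaks without them were rare. A MyoD peak stood alone only without a MyoG peak, and the reverse. Both factors bind E-boxes, and regions with MyoD and MyoG alone made up 12.3% of all regions. The shares of the 4 factors are thus not on an equal footing. In rank within its own list, the median RUNX1-only peak stood at percentile 32.4, against 23.1 for MyoD-only, 27.3 for MyoG-only and 36.3 for c-Jun-only peaks.

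At the top of the RUNX1-only regions, 5 lay above the ceiling of 3100 and 15 exactly at it, out of 416 RUNX1 regions at or above it. Whether a score above 3100 marks a stronger peak than one at 3100 is not known, so the 20 are without an order. They were spread over 12 chromosomes. Their gaps to the nearest peak of another factor ran from 129 bp to 24117 bp with a median of 5239 bp, and 12 of the 20 had such a peak within 10 kb.

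The 5 regions above the ceiling (build mm9) differed in their surroundings. The region at chr1:167563854-167565207 scored 3222, and its nearest other peak was c-Jun at 5900 bp. A second one, chr1:152894615-152895891, scored 3217 and lay 10568 bp from MyoG and 417566 bp from the next RUNX1-only region. A further one, chr1:158648197-158649676, scored 3212 and lay 2302 bp from MyoD. None of these 3 had another RUNX1-only region within 10 kb.

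The remaining regions above the ceiling were unlike each other. The one at chr4:108520151-108521597 scored 3141, and each of the other factors was more than 12 kb away, at 12278 bp for MyoD, 13512 bp for MyoG and 13595 bp for c-Jun. By contrast, chr13:63668888-63670039 scored 3112 and had c-Jun at 676 bp and another RUNX1-only region at 3109 bp.

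Of the 15 regions at exactly 3100, the 5 widest were named. Those at chr3:91884203-91886265 and at chr13:85427632-85429634 were the most remote of these 5, 24114 bp and 21765 bp from the nearest other peak, MyoG in each case. The region at chr17:4994642-4996609 was the opposite. All 3 other factors lay within 421 bp of its edges, and another RUNX1-only region lay 23 bp away. The regions at chr2:126500111-126502028 and at chr4:117806925-117808335 lay 3899 bp from MyoD and 1816 bp from MyoG, in that order.

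Most RUNX1-only regions had another factor nearby, though not overlapping. The gap to the nearest peak of MyoD, c-Jun or MyoG, measured from edge to edge, had a median of 4539 bp (3532 bp to 5401 bp over chromosomes). It was within 1 kb for 19.2% of regions and within 10 kb for 70.8%. Regions of the other single factors had values on both sides of this, with a peak of another list within 10 kb for 73.9% of MyoG-only, 65.8% of MyoD-only and 65.2% of c-Jun-only regions. It exceeded 100 kb for 137 regions, or 1.30%. By factor, the median gap was 7439 bp to MyoG, 10499 bp to MyoD and 11198 bp to c-Jun. The MyoG list was the longest, with 61491 peaks against 45201 for MyoD and 41480 for c-Jun, so gaps to different lists are not on an equal footing. Counted by list, the nearest other peak was c-Jun at 39.7% of RUNX1-only regions, MyoG at 34.5% and MyoD at 25.7%. A site of both MyoD and MyoG counted only for the list with the nearer edge. Regions with MyoD and MyoG alone made up 12.3% of all regions. These shares therefore do not make c-Jun the closest factor. A c-Jun peak lay within 10 kb of 46.9% of RUNX1-only regions, a MyoD peak of 48.8% and a MyoG peak of 57.9%.

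Gap and score were almost unrelated among RUNX1-only regions (Spearman's rho 0.03 across 10565 regions, as a description). The median gap was 4153 bp in the lowest quartile of score and 5149 bp in the highest. The strong RUNX1-only regions were therefore not nearer to other factors than the weak ones. The nearby peaks themselves had a lower median score than their lists for MyoD and MyoG and a higher one for c-Jun. MyoD peaks within 500 bp of a RUNX1-only region had a median score of 155.6 against 176.9 in the whole MyoD list. The values were 158.9 against 190.3 for MyoG and 188.5 against 172.5 for c-Jun.

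**Figure D3:**
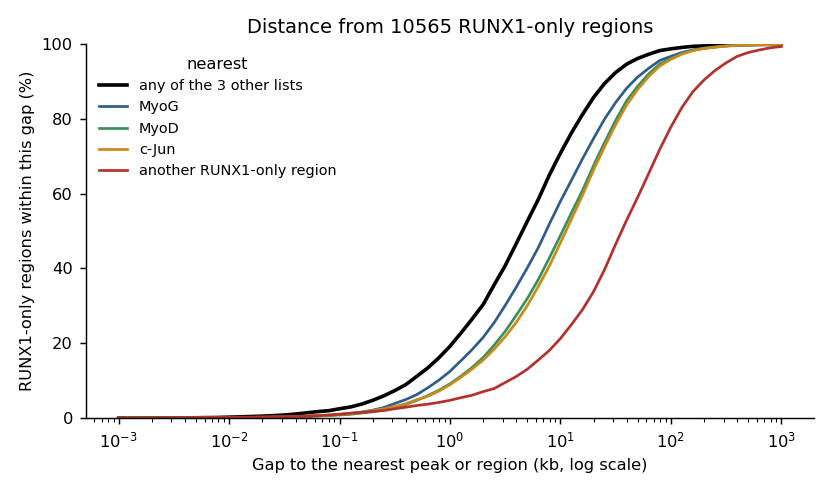
Cumulative percent of the 10565 RUNX1-only regions (vertical axis) whose nearest peak or region lies within a given gap in kb (horizontal axis, log scale), drawn for each other list, for any of them, and for another RUNX1-only region. The curve for any other list passes 70.8% at 10 kb, and the curve for another RUNX1-only region passes 21.3% there.

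The rule asked for no shared base, and regions lay close to that threshold on both sides. On the RUNX1-only side, 264 RUNX1-only regions lay within 100 bp of another peak. The gap was 1 bp for 4 of them, and the 3 with the highest scores were at chr14:33343842-33344572 (RUNX1 score 398.7), 1 bp from MyoD, and at chr2:80419289-80420003 (71.15) and chr1:75015233-75015919 (67.41), each 1 bp from c-Jun. On the side with other factors, 158 RUNX1 regions shared at most 100 bp with any other peak. The smallest overlaps were 1 bp with MyoG at chr9:61908129-61908870 (RUNX1 score 113.2) and 2 bp with c-Jun at chr9:23054396-23055097 (106.3) and chr12:75384820-75385549 (83.13). All but 1 of these 6 RUNX1 scores were under 120.

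At the other end, the 5 most remote RUNX1-only regions lay 924.9 kb or more from any peak of another factor. The region at chr7:11080196-11081159 lay 1926 kb from any other list and scored 137.7. Those at chr6:104733390-104734402 (score 51.64), chr5:84845964-84847035 (168.4), chr12:48462216-48462920 (59.94) and chr8:65430284-65430922 (59.19) lay at 1134, 1011, 966 and 925 kb. Their widths, from 639 to 1072 bp, lay around the median of 859 bp, and 3 of the 5 scores were within 10 of the lowest score in the list.

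Fewer other peaks surrounded RUNX1-only regions than surrounded regions with MyoG. Within 50 kb of a RUNX1-only region, the region itself left out, there was a mean of 12.6 peaks of MyoD, c-Jun and MyoG together (10.3 to 14.7 over chromosomes). Around 4-factor regions the mean was 17.2 (14.6 to 19.3), and around RUNX1 regions with MyoG it was 15.1 (12.2 to 17.4). RUNX1-only regions had the lower mean on 19 of 19 chromosomes in each of these comparisons. Around the 5104 regions with RUNX1 and c-Jun the mean was 13.2, and RUNX1-only regions were lower on 17 of 19 chromosomes. Against RUNX1 with MyoD and c-Jun (12.9) they were lower on 13 of 19 chromosomes, and against RUNX1 with MyoD (12.7) on 10 of 19. The direction was not stable in these classes. No peak of another list lay within 50 kb of 409 RUNX1-only regions, or 3.87%. In the classes with MyoG this share ran from 1.12% for 4-factor regions to 1.77% for RUNX1 with MyoG. It was 2.33% for RUNX1 with c-Jun and 2.58% for RUNX1 with MyoD and c-Jun. For RUNX1 with MyoD it was 3.74%, near that of RUNX1-only regions. Whether regional peak density differs apart from the classes was not tested.

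RUNX1-only regions also stood next to each other more often than their number alone gave. The next merged region along the chromosome was RUNX1-only for 14.9% of RUNX1-only regions (11.5% to 17.7% over chromosomes), while RUNX1-only regions made up 10.8% of all regions. The ratio was 1.38, and the share was above that of the same chromosome on 19 of 19 chromosomes. Each of the 5 other classes examined in the same way also had a ratio above 1. It was 1.48 for MyoD-only, 1.33 for c-Jun-only, 1.25 for 4-factor, 1.22 for RUNX1 with MyoG and 1.21 for MyoG-only regions.

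The other neighbours of RUNX1-only regions were compared in the same way, as the share among neighbours over the share of all regions. Among the 7 other classes with RUNX1, the ratio was 1.12 with MyoG, 1.11 with c-Jun and MyoG, 1.08 with c-Jun and 1.07 with MyoD. It was 0.998 with MyoD and MyoG, 0.979 with MyoD and c-Jun and 0.911 with all 3. The 7 classes without RUNX1 had ratios from 0.767, for c-Jun with MyoG, to 0.9504, for MyoG-only regions. These are descriptions of position along the genome, with no test.

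**Figure D4:**
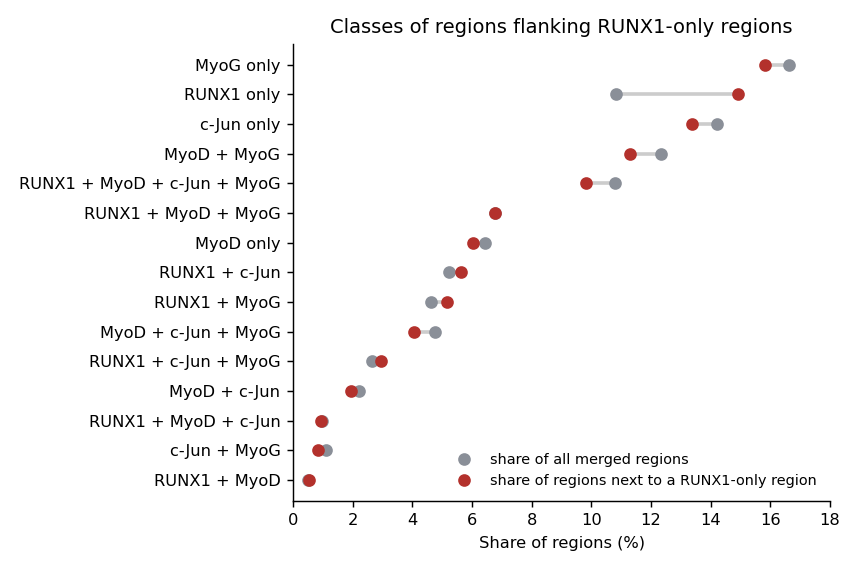
Share of each of 15 classes among all merged regions (grey points) and among the regions directly before or after a RUNX1-only region (red points), in percent. The widest gap is that of RUNX1-only regions themselves, at 14.9% against 10.8%.

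In windows of 100 kb, RUNX1-only regions occurred in 6909 of 24731, or 27.9%. Most of these windows, 4447, held exactly 1, and 66 held 5 or more. A 4-factor region lay in the same window for 51.7% of RUNX1-only regions. Conversely, 424 RUNX1-only regions, or 4.01%, lay in 366 windows without any peak of the other lists. Neither share was set beside that of another class, so neither shows a preference for or against such windows.

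The window with the most RUNX1-only regions was at chr6:52100001-52200000. It held 10 of them among 20 RUNX1 peaks, interleaved with 5 MyoD, 5 c-Jun and 12 MyoG peaks. The 10 scores ran from 52.15 to 1274 with a median of 133.8. The strongest of them, from 52182962 to 52185218, was also broad, at 2257 bp. The gaps to the nearest other peak were short, from 133 bp to 3734 bp. With windows shifted by 50 kb, the window at chr6:52150001-52250000 held the most, with 9 RUNX1-only regions. The first place was shared at other window sizes. With windows of 50 kb, chr6:52150001-52200000 and chr17:34400001-34450000 each held 7. With windows of 200 kb, 4 windows each held 10, on chromosomes 2, 6, 7 and 17.

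The next windows had fewer other peaks than the one on chromosome 6, with 6 on chromosome 2 and 2 on chromosome 17 against 22. These numbers were not set beside that of a typical window. The window at chr2:74500001-74600000 held 9 RUNX1-only regions and 2 other RUNX1 peaks, with 2 MyoD, 1 c-Jun and 3 MyoG peaks. Its scores ran from 51.21 to 498.0 with a median of 131.3. The window at chr17:34400001-34500000 held 8 RUNX1 peaks, all of them RUNX1-only, beside 1 MyoD peak, 1 MyoG peak and no c-Jun peak. Its scores ran from 55.64 to 606.7, the strongest from 34428354 to 34428990 with a gap of 40634 bp to any other factor. In contrast to chromosome 6, RUNX1 here occupied a stretch that the other lists left nearly empty.

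The remaining windows of the 5 were of the mixed kind. On chr11:120500001-120600000 there were 7 RUNX1-only regions beside 7 MyoD, 2 c-Jun and 8 MyoG peaks. One of the 7, from 120533823 to 120535417, reached a score of 2039, while the median was 147.4. On chr1:191600001-191700000 there were 7 beside 7 MyoD, 5 c-Jun and 13 MyoG peaks, and here all 7 scores were low, from 52.58 to 107.4.

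**Figure D5:**
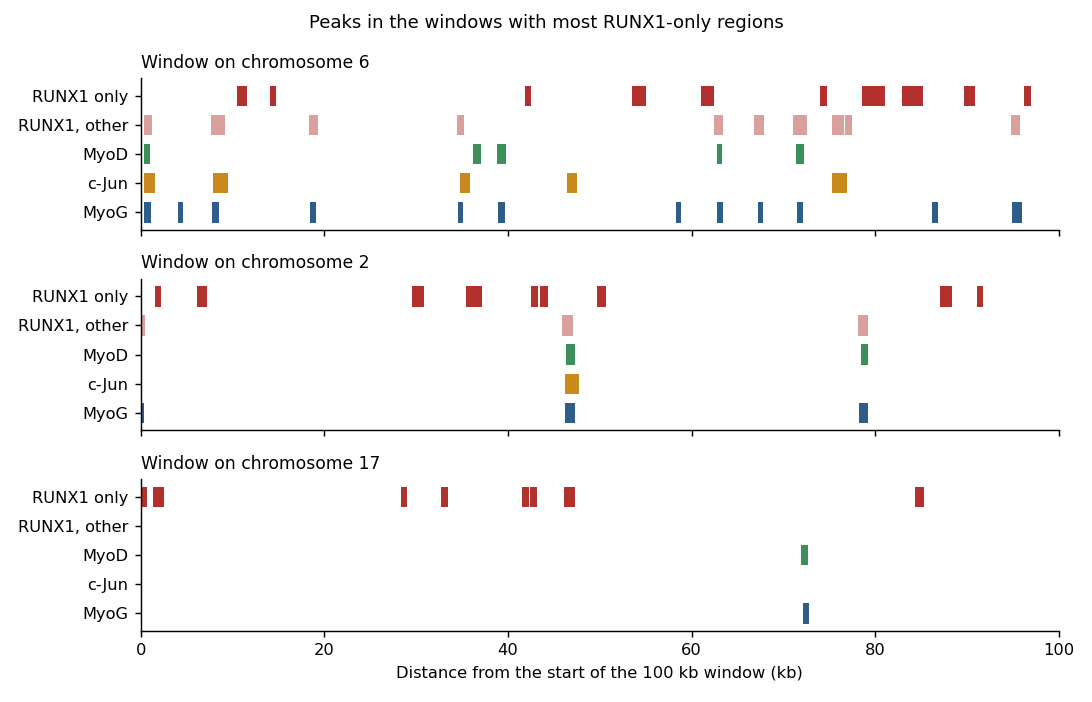
Peaks in the 3 windows of 100 kb with the most RUNX1-only regions, by distance from the window start in kb: RUNX1-only peaks, other RUNX1 peaks, and MyoD, c-Jun and MyoG peaks on separate lines. Peaks were counted by their centres, and those reaching over an edge are drawn. The chromosome 6 window mixes 10 RUNX1-only regions with 22 peaks of the other factors, and the chromosome 17 window holds 8 RUNX1-only regions and 2 peaks of the other factors.

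Among windows without any peak of the other lists, the one at chr5:120800001-120900000 held the most, with 5 RUNX1-only regions spread over 83.5 kb. Their scores ran from 57.79 to 194.7 with a median of 66.59, and the nearest other factor was 17552 bp or more away. A further 7 such windows held 3 RUNX1-only regions. In order of position, the first 4 were at chr1:83000001-83100000, at chr2:92000001-92100000, chr2:180600001-180700000 and at chr3:109900001-110000000. The regions of the first of these reached a score of 556.9 and those of the third a score of 336.4, against 75.70 in the fourth. In the second, the 3 regions lay within 3.14 kb of each other, and the nearest peak of another factor was 42107 bp away.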

How the data were processed

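The data were 4 peak lists on mm9 coordinates, each for 1 factor. Each gave a peak's chromosome, start, end, name and a score deposited by the authors. CASAVA 1.7.0 and 1.8.2 and Bowtie are named in the submitters' processing notes. Peak names begin with MACS, per the files' name column. The MACS version and settings, the control used, the pooling of replicates and the meaning of the score were not given in the sources used. The score served only to rank peaks within 1 list. Starts were read as counted from 0 and are printed counted from 1. In all, 0 peaks lay beyond an mm9 chromosome end (lengths from GenomeInfoDb 1.38.1).

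Peaks were merged and classified, and gaps, neighbours and windows were computed, with Python 3.11.15, numpy 2.4.6, pandas 2.3.3 and scipy 1.17.1; figures used matplotlib 3.10.9. The code was tested on simulated data: in 5 of 5 sets, regions and gaps equalled a brute-force answer. Windows took regions by their centres.

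No test was run, as the peak positions themselves chose the regions and no replicate was separable. Genes, promoters and motifs were not analysed here, since the reference tables used another build than the files. The rule for named regions took the 10 highest scores, the 5 farthest and the 3 nearest to another list, the 3 smallest overlaps, the 5 windows with most regions and the 5 such windows free of other lists. Regions, rule and alternatives were chosen with earlier results of these data known.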

Additional observations from a re-analysis of the deposited data

How the results depend on the processing

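Of 62 alternatives other than leaving out a chromosome, 23 stayed within the 95% interval (for counts, within 1.5 times) and 39 did not. The neighbour ratio kept its direction in every alternative where it was computed. The order of the RUNX1-only and 4-factor classes by number did turn, with peaks within 500 bp or 1000 bp merged (8190 against 11255 at 1000 bp) and with RUNX1 scores of 100 or more (5576 against 8890). The 76 values with a chromosome left out all stayed within these limits, with 9705 to 10241 regions and a median score of 105.9 to 106.7. For the counts this was fixed in advance, since no chromosome held more than 860 of the 10565 regions. The shares and medians had little room to move as well, since each set kept most of the same regions. Alternatives for the decile shares, the neighbour ratio and the order of classes were chosen after seeing the data.

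The number of RUNX1-only regions rose from 10565 to 20602 with centres within 150 bp required for sharing and fell to 5576 with RUNX1 scores of 100 or more. With 50% of the shorter peak shared it was 11293. In the following, values stand in the order 50% shared, centres within 150 bp, merging within 500 bp, merging within 1000 bp, MyoG left out, and scores of 100 or more in the other 3 lists. The share of RUNX1 peaks that were RUNX1-only was 26.7%, 48.8%, 21.8%, 19.9%, 35.9% and 34.2%, and the share with another factor within 10 kb was 72.7%, 85.0%, 66.6%, 63.2%, 64.6% and 62.1%. With 50% shared or centres within 150 bp, RUNX1-only peaks could still overlap another list, and those counted as within 10 kb. The values of 72.7% and 85.0% were thus raised by the rule itself and do not measure nearness without overlap. The RUNX1-only share of the lowest score decile was 49.2%, 62.2%, 39.9%, 36.1%, 56.9% and 55.9%. That of the highest decile was 8.22%, 40.7%, 6.70%, 6.01%, 13.8% and 13.4%, always below the lowest decile. With scores of 100 or more in all 4 lists or in RUNX1 alone, the share was 27.7% and 18.9%, the median score 225.8 and 212.4, and the share within 10 kb 61.2% and 69.8%. The median score was 153.4 with centres within 150 bp, 117.6 without MyoG and 116.4 with scores of 100 or more in the other lists. The neighbour ratio was 1.26 without MyoG, 1.48 with RUNX1 scores of 100 or more and 1.25 with such scores in the other lists. From centre to centre, 68.3% had another factor and 19.9% another RUNX1-only region within 10 kb.

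No paired analysis was possible because each factor's libraries ended in a single list, which also kept replicates from being left out in turn. Motif and promoter alternatives were not run. Depth is unknown, so a missing peak does not show that a factor was absent.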

Other observations

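Chromosome X lay outside the rule. There, 211 of 553 RUNX1 regions held no other factor, or 38.2% (exact 95% interval 34.1 to 42.3), while no autosome was above 27.4%. All 4 lists were sparse on X, at 3.33 peaks per Mb for RUNX1 (17.1 on the autosomes), 4.39 for MyoD (18.3), 3.92 for c-Jun (16.8) and 5.79 for MyoG (24.9). The median score of the X regions, 111.2, was near that of the autosomal ones, and their median gap to another factor was 13.7 kb. The difference was not tested.

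RUNX1-only regions formed uninterrupted runs along the chromosomes, with no region of another class between them. Of all RUNX1-only regions, 7701 had none beside them, and 1070 runs held 2, 172 held 3 and 38 held 4. The longest run, picked out after its values were seen, held 8 regions over 53.0 kb at chr17:34394343-34447295, with scores from 55.64 to 606.7. Runs of 6 lay at chr2:74501522-74544300, at chr4:154285094-154356260 and at chr5:120807874-120908837.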
